A study of Mus musculus with 39 samples.

Results

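Cytochrome P450s, flavin mono-oxygenases and carboxylesterases, which oxidise or hydrolyse drugs, toxicants, steroids and fatty acids, were followed here together with the UDP-glucuronosyltransferases and sulfotransferases that couple such compounds to water-soluble groups. The genes were chosen by symbol (Cyp, Ces, Ugt, Sult or Fmo followed by a number), by protein-coding type and by level, at least 1 FPKM (read fragments scaled for transcript length and library depth) in at least 4 libraries of lung or of colon. This rule kept 77 of the 169 protein-coding genes with such a symbol, out of 55357 genes in the tables. It kept 44 of 100 P450 genes, 10 of 19 carboxylesterases, 11 of 22 glucuronosyltransferases, 7 of 21 sulfotransferases and 5 of 7 flavin mono-oxygenases. The level was reached by 51 of the 77 in lung and by 60 in colon, 34 of them in both tissues, 17 in lung only and 26 in colon only. Levels therefore describe the choice of genes and carry no test. A gene that reached the level only through the group in which it was high had to differ between groups, so counts over the genes that reached it are a description. Just inside the rule stood Cyp2ab1 and Cyp4a32, each past the level in 4 lung libraries, with highest values of 1.753 and 1.502 FPKM. Just outside stood Ces2f, Cyp2d40, Cyp2r1 and Ugt1a10, past the level in at most 3 libraries of a tissue, with highest colon values of 1.60, 2.27, 1.57 and 6.60 FPKM. Glutathione S-transferases were not included.

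The mice had the C57BL/6N background and were either wild type (WT) or knock-out for Cd177 (KO), a surface glycoprotein of neutrophils. Each genotype had a sham group and a group with acute pancreatitis (AP), which gave 4 groups in lung and 4 in colon. Every group held 5 libraries except KO AP colon, which held 4, so 39 libraries were compared. The sources used here give neither the way the pancreas was inflamed, nor the time of sampling, nor the age and sex of the mice, nor the cells that carry the deletion. The labels do not say that the libraries of a group came from separate animals, so the p-values measure the spread between these libraries only. Lung and colon values stood in separate tables and are set side by side with no test between them.

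P450s are haem enzymes of the endoplasmic reticulum or mitochondria that insert oxygen into a substrate with electrons from a reductase. Club cells of the airway hold most of the xenobiotic P450 activity of mouse lung, while absorptive cells of the colon surface carry esterases, glucuronosyltransferases and sulfotransferases that act on compounds from the gut. Other P450s have fixed roles in the body's own lipids, such as cholesterol synthesis, oxysterol breakdown and the clearance of retinoic acid.

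Promoter sequences, 250 bases before to 50 bases after each start site, were taken from RefSeq on build GRCm38.p6, whose coordinates are given here and not those of the expression files. They were found for 62 of the 77 genes, with 70 promoters. The first is that of Ces1g, the carboxylesterase with the largest difference in lung, at chr8:93337160-93337459 on the minus strand, with matches to CCAAT in capitals.
Ces1g: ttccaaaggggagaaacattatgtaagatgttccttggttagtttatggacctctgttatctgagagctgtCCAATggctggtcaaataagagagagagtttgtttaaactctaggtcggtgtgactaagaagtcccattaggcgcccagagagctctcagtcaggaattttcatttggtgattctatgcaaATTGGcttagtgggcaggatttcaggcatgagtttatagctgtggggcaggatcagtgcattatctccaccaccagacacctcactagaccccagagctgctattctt
The letters CCAAT, searched on both strands as all motifs here, stood in 50% of the 70 promoters and in 37.4% of all 32851 promoters of the same length. The next pair shows how alike the P450s that led the colon comparison are. The Cyp2d9 promoter lies at chr15:82452127-82452426 on the plus strand and the Cyp2d10 promoter at chr15:82407145-82407444 on the minus strand. They held the same base at 222 of 297 positions, 74.8%, when set 3 bases apart with no gap allowed. Capitals mark the compared bases that differ in that setting, and the 3 bases without a partner in each are in small letters. A base gained or lost in either promoter puts the letters beyond it out of step. Many capitals near the start can be such shifts, and the share can understate the likeness.
Cyp2d9: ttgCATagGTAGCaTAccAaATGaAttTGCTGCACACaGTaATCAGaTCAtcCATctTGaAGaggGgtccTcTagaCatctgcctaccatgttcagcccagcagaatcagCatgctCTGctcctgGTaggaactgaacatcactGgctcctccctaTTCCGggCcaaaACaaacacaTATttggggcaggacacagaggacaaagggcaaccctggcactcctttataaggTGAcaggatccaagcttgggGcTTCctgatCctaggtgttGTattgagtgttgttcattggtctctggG
Cyp2d10: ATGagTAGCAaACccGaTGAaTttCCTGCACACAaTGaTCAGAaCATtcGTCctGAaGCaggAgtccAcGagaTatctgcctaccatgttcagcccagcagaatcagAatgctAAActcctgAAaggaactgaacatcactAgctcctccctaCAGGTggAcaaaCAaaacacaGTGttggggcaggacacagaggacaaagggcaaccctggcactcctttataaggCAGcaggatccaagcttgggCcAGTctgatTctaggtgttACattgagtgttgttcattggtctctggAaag
Last come the windows around the letters CAAAGTCCA, a form of the site read by the hepatocyte nuclear factor HNF4, in capitals. They are shown because Hnf4a, which encodes that factor in liver and gut, is one of the control genes described below. The match stood in 8.57% of the 70 promoters and in 0.475% of all promoters. Of the 6 genes that held it, 4 are neighbouring Cyp2c genes with related sequence, so these are not independent cases, and the windows of Cyp2c40 and Cyp2c69 were identical.
Cyp2c40: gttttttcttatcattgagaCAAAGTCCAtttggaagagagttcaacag
Cyp2c65: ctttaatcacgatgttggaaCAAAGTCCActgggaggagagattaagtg
Cyp2c68: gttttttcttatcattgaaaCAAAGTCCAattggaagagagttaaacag
Cyp2c69: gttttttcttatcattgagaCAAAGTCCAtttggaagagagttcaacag
Cyp8b1: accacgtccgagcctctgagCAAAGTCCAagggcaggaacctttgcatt
Sult1b1: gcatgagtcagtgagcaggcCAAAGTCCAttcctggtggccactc
In order, these lie at chr19:39812831-39812879 (minus strand), chr19:39060870-39060918 (plus), chr19:39741150-39741198 (minus), chr19:39886816-39886864 (minus), chr9:121916344-121916392 (minus) and chr5:87536173-87536217 (minus). The core read by the aryl hydrocarbon receptor, TNGCGTG, stood in 4.29% of the 70 promoters and 5.07% of all. The antioxidant response core TGACNNNGC stood in 8.57% and 12.4%. The sterol element TCACNCCAC stood in 4.29% and 1.24%. A match is a description of the letters and not a bound site.

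Cd177 itself, the deleted gene, read 1.31 to 3.59 FPKM in WT sham lung, 2.097 to 4.18 in WT AP lung, 38.5 to 52.1 in WT sham colon and 49.7 to 76.4 in WT AP colon, and was listed at 0 in all KO libraries. The reads behind the values, recovered from their whole-number steps, came to between 57900000 and 71200000 in WT lung and between 77000000 and 95400000 in KO lung, and to between 55600000 and 78300000 in WT colon and between 77700000 and 98600000 in KO colon. Depth did not overlap between genotypes in lung and barely did in colon, so depth and genotype cannot be told apart. KO lung libraries had 21471 to 24648 genes above 0, against 24483 to 25696 in WT lung, and correlated less with their own group (mean r of 0.929 to 0.962, against 0.968 to 0.988 in WT). Mitochondrial genes took 10.6% to 19.1% of the values in KO AP colon and 7.02% to 11.6% in WT AP colon. A mean correlation under 0.94 with the rest of the group was found in 5 KO libraries, namely lung KO AP 3, lung KO sham 4 and 5, and colon KO AP 1 and 4. Lung KO AP 3 also summed to 3568 FPKM over 8 fat cell markers, against 6.80 to 177.6 in the other lung libraries. Colon WT sham 2 summed to 957.5 FPKM over 8 small intestine markers, against 72.4 to 143 in the other WT sham colon libraries. In bulk tissue, fewer cells of a type and less RNA per cell cannot be told apart.

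In WT sham lung the highest levels per transcript length were those of Cyp2f2, the club cell P450 that activates naphthalene, at 1376 ± 117 FPKM (SD, n = 5). It was followed by Cyp4b1, a lung P450 of fatty acids and plant toxins, at 567 ± 61.1, Fmo2, the main lung flavin mono-oxygenase, at 488 ± 35.9, Ces1d, a lipid-hydrolysing esterase, at 331 ± 26.3, and Fmo1 at 261 ± 28.4. The order of these levels is a description, and the ranges of Cyp4b1 and Fmo2 overlapped over the 5 libraries. In WT sham colon the leading genes were Cyp2c55, an arachidonic acid epoxygenase of the colon, at 192 ± 291, Sult1a1, a phenol sulfotransferase, at 171 ± 11.1, Cyp2d34 at 167 ± 25.2, the esterase Ces2c at 125 ± 63.8, and Sult1b1, a sulfotransferase of thyroid hormones and phenols, at 104 ± 37.2. The mean of Cyp2c55 rests on colon WT sham 2, which read 711 FPKM against 32.1 to 102 in the other 4, so its place in that order does not hold beyond the spread, and the ranges of Sult1a1 and Cyp2d34 overlapped. Cyp2c55, Cyp2d34 and Ces2a were listed at 0 in all 5 WT sham lung libraries, and Cyp2b10 averaged 0.0046 FPKM in WT sham colon.

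**Figure D1:**
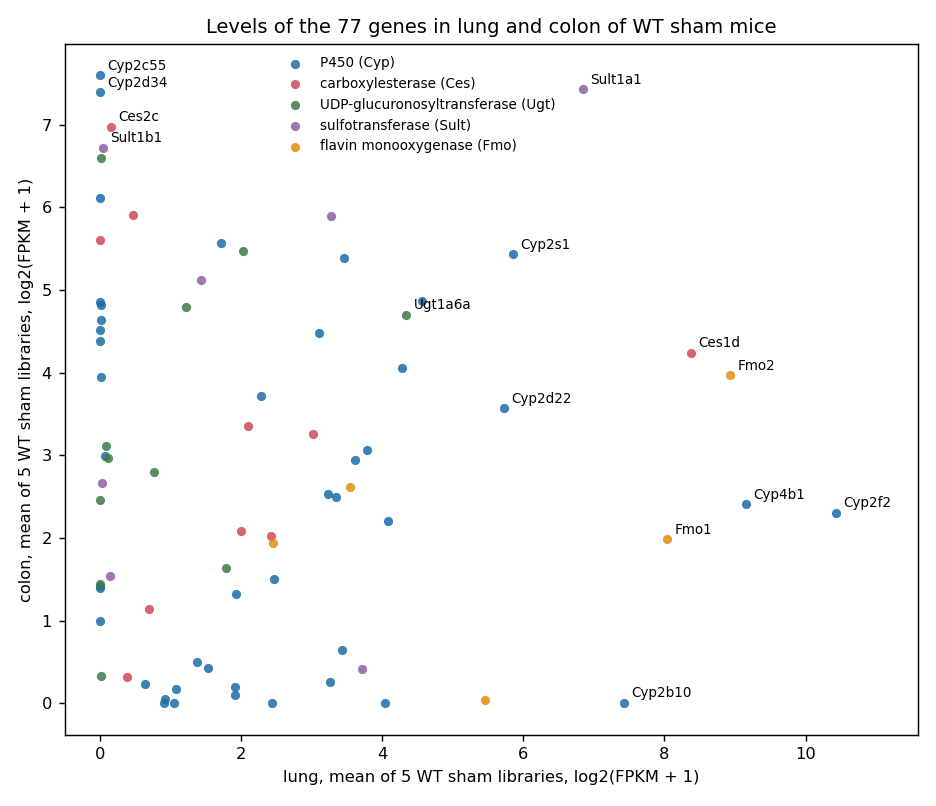
Mean levels of the 77 genes in WT sham lung (horizontal axis) and WT sham colon (vertical axis), both in log2(FPKM + 1), with 1 point per gene coloured by family. Cyp2f2, Cyp4b1, Fmo2 and Ces1d lie far to the right and Cyp2c55, Cyp2d34 and Sult1b1 high on the left, while Sult1a1 is high on both axes.

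All 77 genes together summed to 3725 ± 258 FPKM in WT sham lung (mean ± SD, n = 5), 3432 ± 281 in WT AP, 2538 ± 482 in KO sham and 3846 ± 1245 in KO AP, and Cyp2f2 made up 36.9%, 40.6%, 31.1% and 45.1% of these sums. In colon the sums were 1729 ± 700.3 in WT sham, 1315 ± 142 in WT AP, 1782 ± 610.1 in KO sham and 2264 ± 404 in KO AP (n = 4), with Cyp2d34 making up 9.66%, 14.8%, 13.1% and 17.7%. The sums are thus set by few genes, and their spread was widest in KO AP lung and WT sham colon.

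The first comparison asked how these genes differed between KO and WT lung. Fmo2, Fmo1 and Cyp4b1, which are among the 5 highest genes of WT sham lung, were lower in KO lung in both AP and sham, while the carboxylesterases Ces1g and Ces1e were higher in both. Oxysterol hydroxylase Cyp7b1, the cholesterol synthesis P450 Cyp51 and 3 fatty acid hydroxylases of the Cyp4f group, Cyp4f13, Cyp4f16 and Cyp4f39, were also higher in both. With limma on log2(FPKM + 1) and adjusted p under 0.05 over all 15978 genes tested, 24 of 51 genes (47.1%) passed in AP, 13 higher and 11 lower in KO, and 32 of 51 (62.7%) passed in sham, 15 higher and 17 lower. Of all genes tested, 55.8% passed in AP (27.6% higher, 28.1% lower) and 58.8% in sham (28.8% higher, 30.0% lower), so the shares of the enzyme genes were near the background. The median difference (KO minus WT, log2) over the 51 genes was 0.19 in AP and -0.15 in sham, against 0.00 and -0.01 over all genes. Both lists of higher genes held 10 in common, 76.9% of those higher in AP and 66.7% of those higher in sham. The lower lists shared 11, all 11 of the AP list and 64.7% of the sham list. Of the genes called, 2 higher and 3 lower in AP and 1 higher and 3 lower in sham reached the level in fewer than 4 libraries of the genotype in which they were lower, so that the choice by level bore on their difference. Rescaling to TPM, in which every library has the same sum, moved the median of all genes to -0.18 in AP and -0.26 in sham. It split the enzyme genes into 11 higher and 13 lower in AP and 7 higher and 19 lower in sham, and all genes into 2965 higher and 5492 lower in AP and 2891 and 6209 in sham. Each difference below is in log2(FPKM + 1), KO minus WT, with its standard error and limma's adjusted p.

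Markers of lung cell types moved in the same comparisons. Summed over 8 markers each, ciliated cells read 375 to 515 FPKM in WT sham, 438 to 697 in WT AP, 615 to 1465 in KO sham and 958 to 1394 in KO AP, with 8 of 8 markers higher in KO in AP and 6 of 8 in sham. Endothelial markers summed to 1388 to 1551, 1174 to 1384, 330 to 1435 and 583 to 928 in that order, with 5 of 8 lower in KO in each comparison. Fibroblast markers summed to 381 to 509, 364 to 489, 206 to 355 and 171 to 240.4, with 6 of 8 lower in AP and 3 of 8 in sham. Alveolar type 2 cell markers were lower for 6 of 8 in AP and 5 of 8 in sham, while their sum, 18950 to 28900 FPKM in WT sham, ran from 12510 to 77490 in KO sham. Enteric neuron markers summed to 6.49 to 11.2 FPKM in WT AP and 45.2 to 218.5 in KO AP, and to 8.23 to 9.95 in WT sham and 9.98 to 298.8 in KO sham. Only 4 of these 8 markers reached the level in lung, with 2 higher and 1 lower in KO in each comparison. Club cell markers summed to 44700 to 68970 FPKM in WT sham, 47920 to 87990 in WT AP, 28140 to 77730 in KO sham and 26670 to 138300 in KO AP. In KO sham, library 4 read 77730 and the others 28140 to 37370, below all WT sham libraries. Of the 8 club cell markers, 2 were higher and 1 lower in AP and 1 higher and 2 lower in sham. Smooth muscle markers had 5 higher and 2 lower of 8 in AP and 4 and 2 in sham. The part of cell composition in the differences of the enzyme genes was not tested.

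Among the P450s of the first 3 families, which act mainly on foreign compounds, Cyp2f2 had the highest level in each group. It read 1210.0, 1528, 1381, 1335 and 1423 FPKM in WT sham, 1388, 1066, 1656, 1554 and 1300.0 in WT AP, 650.5, 905, 1124, 1058 and 209 in KO sham, and 1292, 2961, 802, 1342 and 2283 in KO AP. All 5 KO sham libraries lay below all 5 WT sham libraries, with KO sham 5 far below the rest, while the KO AP libraries lay on both sides of WT AP. Cyp2f2 was lower in KO, at -1.01 ± 0.38 (adjusted p = 0.028) in sham and differed by 0.19 ± 0.38 (adjusted p = 0.70) in AP. The sham call was lost without KO sham 5 (-0.58, adjusted p = 0.086) and without WT sham 2 (-0.97, adjusted p = 0.054). It was also lost with no filter on low values and with only the groups compared.

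Cyp2s1, a P450 of surface epithelia, read 56.1, 55.4, 51.5, 53.5 and 68.1 FPKM in WT sham, 60.4, 52.6, 75.2, 71.1 and 53.7 in WT AP, 141, 121, 98.9, 71.5 and 43.5 in KO sham, and 149, 181, 79.5, 174 and 158 in KO AP. All KO AP libraries lay above all WT AP libraries, whereas KO sham spread from below the lowest WT sham library to far above the highest. Cyp2s1 was higher in KO in AP by 1.19 ± 0.26 (adjusted p = 0.00069) and in sham by 0.63 ± 0.26 (adjusted p = 0.041). The sham call was lost when any of KO sham 1, 2 or 3 or WT sham 1, 2, 3 or 4 was left out, with adjusted p up to 0.13, under TPM and upper quartile scaling, with no filter on low values, with only the groups compared and with the replicate block. Cyp2d22, the Cyp2d gene of highest level in lung, read 52.5, 55.8, 57.7, 48.8 and 44.6 FPKM in WT sham, 36.4, 37.9, 35.9, 35.2 and 48.9 in WT AP, 13.9, 25.7, 24.7, 26.9 and 23.7 in KO sham, and 14.7, 26.1, 25.4, 19.6 and 47.4 in KO AP. KO and WT did not overlap in sham, and in AP 1 KO library, number 5, reached the WT range. Cyp2d22 was lower in KO in sham, at -1.17 ± 0.22 (adjusted p = 0.00018) and in AP at -0.62 ± 0.22 (adjusted p = 0.022), the AP call being lost without KO AP 1, KO AP 4 or WT AP 5 (adjusted p up to 0.080) and with no filter. Cyp2b10, the phenobarbital-inducible P450, read 149, 173, 177, 145 and 212 FPKM in WT sham, 166, 130.3, 152, 134 and 196 in WT AP, 243, 228, 253, 141 and 236 in KO sham, and 231, 174, 157, 148 and 297 in KO AP. The groups overlapped in AP, and in sham the KO libraries were on both sides of WT, with differences of 0.33 ± 0.19 (adjusted p = 0.15) in AP and 0.34 ± 0.19 (adjusted p = 0.14) in sham.

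Cyp1a1, the classical target of the aryl hydrocarbon receptor, read 8.82, 8.62, 7.07, 7.55 and 10.7 FPKM in WT sham, 4.63, 7.36, 9.21, 11.4 and 7.19 in WT AP, 7.89, 10.2, 21.7, 14.9 and 25.1 in KO sham, and 4.04, 10.4, 6.73, 15.7 and 11.8 in KO AP. KO sham reached higher than WT sham in 3 libraries and overlapped it in the other two. The difference was 0.73 ± 0.31 (adjusted p = 0.048) in sham and 0.19 ± 0.31 (adjusted p = 0.61) in AP, and the sham call was lost without any of 11 single libraries of the 20 (adjusted p up to 0.14), among them KO sham 3, 4 and 5, and with the libraries of low correlation left out (adjusted p = 0.23). TPM and upper quartile scaling, no filter and a pseudocount of 0.1 also ended that call. Cyp1b1, a P450 of stromal cells that acts on oestradiol, differed by 0.30 in AP and -0.15 in sham, neither past the threshold. Cyp2a5, a P450 that oxidises coumarin and nicotine, differed by 1.19 ± 0.48 (adjusted p = 0.039) in sham, a call lost without any of KO sham 1, 2 or 5 or WT sham 3, 4 or 5 (adjusted p up to 0.13), under TPM scaling and with no filter. Its level in KO AP ran from 25.6 to 174 FPKM, the highest in KO AP 3, the library with the fat cell markers. That library also held the highest Cyp2e1, the ethanol-inducible P450, at 84.2 FPKM against 2.30 to 6.16 in the other KO AP libraries.

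The fatty acid hydroxylases split. Cyp4b1 read 472, 618, 609.6, 539 and 596 FPKM in WT sham, 433, 438, 467, 398 and 548 in WT AP, 209, 255, 331, 282 and 341 in KO sham, and 266, 331, 255, 216 and 443 in KO AP. In sham no KO library reached the WT range, and in AP only KO AP 5 did. Cyp4b1 was lower in KO, at -1.01 ± 0.18 (adjusted p = 8.6e-05) in sham and -0.63 ± 0.18 (adjusted p = 0.0054) in AP. Cyp4f16, of the group that inactivates leukotrienes, read 12.1, 10.9, 9.62, 9.64 and 7.91 FPKM in WT sham, 9.43, 10.4, 10.5, 12.8 and 9.72 in WT AP, 21.8, 19.3, 15.9, 19.4 and 20.3 in KO sham, and 19.98, 16.3, 15.8, 18.1 and 15.7 in KO AP. KO libraries stood above all WT libraries in both AP and sham, by 0.65 ± 0.11 (adjusted p = 0.00011) and 0.88 ± 0.11 (adjusted p = 3.8e-06). Cyp4f13 was higher by 0.62 in AP and 0.72 in sham, and Cyp4f39, an enzyme of very long chain fatty acids in epithelial barriers, by 1.11 ± 0.28 (adjusted p = 0.0024) and 1.23 ± 0.28 (adjusted p = 0.00096). Cyp4v3 was lower, at -0.34 ± 0.09 (adjusted p = 0.0048) in AP and -0.57 ± 0.09 (adjusted p = 4.3e-05) in sham. Of the 10 genes of the Cyp4 family tested in lung, 3 were higher and 4 lower in AP, and 4 were higher and 4 lower in sham. Of the lower genes, Cyp4a12b and Cyp4a32 reached the level in at most 1 KO library, so the choice by level bore on those counts.

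Among the P450s of sterols and retinoids, Cyp7b1, which hydroxylates oxysterols, read 1.25, 1.75, 1.56, 1.51 and 1.84 FPKM in WT sham, 1.2, 0.899, 0.858, 1.2 and 1.31 in WT AP, 5.96, 4.45, 3.12, 4.52 and 7.1 in KO sham, and 4.49, 2.56, 2.48, 5.63 and 1.86 in KO AP. Every KO library lay above every WT library of the same treatment. Cyp7b1 was higher in KO by 1.01 ± 0.20 (adjusted p = 0.00034) in AP and 1.19 ± 0.20 (adjusted p = 5.6e-05) in sham. Cyp51, the lanosterol demethylase of cholesterol synthesis, read 5.93, 8.72, 6.57, 8.59 and 8.3 FPKM in WT sham, 5.38, 5.97, 6.49, 9.02 and 5.74 in WT AP, 19.9, 18.1, 9.95, 11 and 15.7 in KO sham, and 18, 6.65, 13.6, 14.8 and 6.29 in KO AP. KO sham did not overlap WT sham, and in AP KO libraries 2 and 5 fell inside the WT range. Cyp51 was higher by 0.85 ± 0.24 (adjusted p = 0.0058) in sham and by 0.69 ± 0.24 (adjusted p = 0.022) in AP, where the call was lost without KO AP 1, 3 or 4 or WT AP 1 (adjusted p up to 0.077), under TPM scaling and with no filter. Cyp8b1, a sterol hydroxylase of bile acid synthesis, was lower, at -0.95 ± 0.22 (adjusted p = 0.0013) in sham and at -0.54 ± 0.22 (adjusted p = 0.046) in AP, the AP call being lost without any of 11 single libraries (adjusted p up to 0.12). That AP call was also lost without the libraries of low correlation, with no filter, with a pseudocount of 0.1 and with the replicate block. Cyp26b1, which clears retinoic acid, differed by -0.63 and -0.57 in AP and sham and Cyp27a1, a mitochondrial sterol hydroxylase, by 0.20 and -0.31, none past the threshold.

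Carboxylesterases held the largest difference of the set in lung. Ces1g, a hydrolase of lipid esters that is abundant in liver, read 2.44, 4.13, 3.04, 2.37 and 2.94 FPKM in WT sham, 2.12, 1.21, 2.26, 2.4 and 2.41 in WT AP, 48, 47.1, 58.2, 3.75 and 21.2 in KO sham, and 59.95, 27.9, 20.04, 25.3 and 45.8 in KO AP. WT libraries were all under 5 FPKM, KO AP libraries all at 20.04 or more, and among KO sham libraries only number 4 fell inside the WT sham range. Ces1g was higher in KO by 3.48 ± 0.48 (adjusted p = 1.1e-05) in AP and 2.78 ± 0.48 (adjusted p = 7.5e-05) in sham. Ces1b read 1.51 to 2.965 FPKM in KO AP and 0.472 to 1.91 in KO sham, against 0.21 to 0.812 in WT AP and 0.228 to 0.389 in WT sham. It reached the level only in KO libraries, 5 AP and 3 sham, so its differences of 1.12 and 0.65 are a description. Ces1e was higher by 0.82 ± 0.17 (adjusted p = 0.00058) and 0.60 ± 0.17 (adjusted p = 0.0057), the last not past the threshold under TPM scaling. Ces1d, whose level was the highest of the family, read 315, 375, 315, 314 and 337 FPKM in WT sham, 309.6, 246, 297, 254 and 327 in WT AP, 212, 278, 379, 286 and 342 in KO sham, and 357, 731, 366, 388 and 576 in KO AP. KO AP lay above WT AP without overlap, and KO sham overlapped WT sham. Ces1d was higher in KO by 0.70 ± 0.19 (adjusted p = 0.0042) in AP and differed by -0.17 ± 0.19 (adjusted p = 0.46) in sham. Ces2g went the other way and read 6.54, 6.5, 6.39, 8.69 and 7.4 FPKM in WT sham, 7.38, 5.36, 7.33, 5.1 and 5.52 in WT AP, 1.99, 1.3, 4.23, 3.23 and 3.59 in KO sham, and 2.56, 1.96, 3.68, 2.66 and 2.72 in KO AP. No KO library reached the WT range of the same treatment, with differences of -0.94 ± 0.19 (adjusted p = 0.00032) in AP and -1.12 ± 0.19 (adjusted p = 4.9e-05) in sham. Of 6 carboxylesterases tested, 4 were higher and 1 lower in AP, and 3 higher and 2 lower in sham, Ces1b among the higher in both, the second lower gene in sham being Ces1f, lower, at -0.69 ± 0.24 (adjusted p = 0.019) and not past the threshold without KO sham 5 (adjusted p = 0.065).

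**Figure D2:**
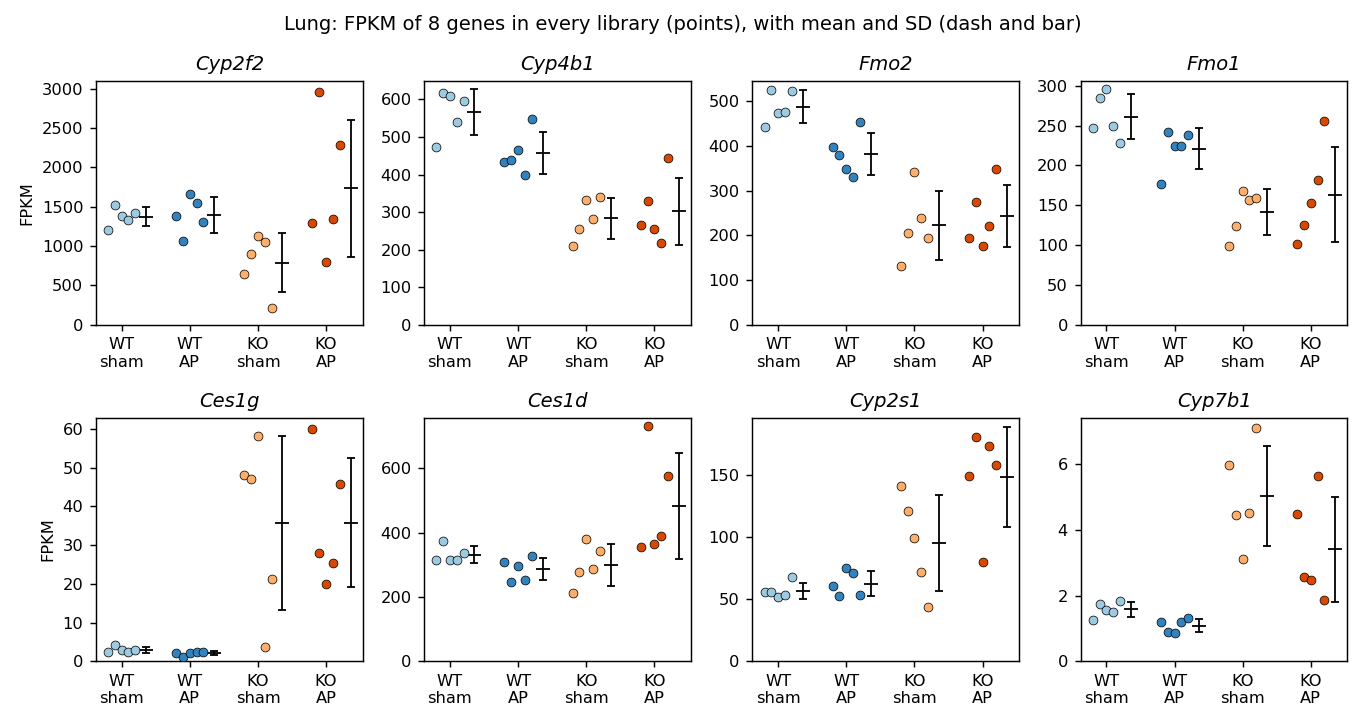
FPKM in each lung library (points) of 8 genes, 1 panel per gene, for WT sham, WT AP, KO sham and KO AP, with the mean and SD of each group. Ces1g lies under 5 FPKM in all WT libraries and at 20.04 or more in all KO AP libraries, and Fmo2 and Cyp4b1 are lower in KO sham than in WT sham without overlap.

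Of the conjugating enzymes tested in lung, 1 of 5 glucuronosyltransferases was higher in KO in AP and in sham, and 2 of 4 sulfotransferases were lower in sham, none in AP. Ugt1a6a, a glucuronosyltransferase of small phenols, read 18.4, 19.4, 17.6, 21.3 and 19.7 FPKM in WT sham, 21.5, 17, 22.7, 18.6 and 14.3 in WT AP, 59.96, 42, 33, 17.9 and 23.2 in KO sham, and 49.8, 33.2, 41.1, 31.7 and 35.1 in KO AP. KO AP did not overlap WT AP, and KO sham 4 lay inside the WT sham range. Ugt1a6a was higher in KO by 0.98 ± 0.23 (adjusted p = 0.0012) in AP and 0.72 ± 0.23 (adjusted p = 0.011) in sham, where TPM scaling ended the call (adjusted p = 0.14). The 8 Ugt1a genes among the 77 share between 50.4% and 70.9% of their 100-base windows with another gene, since they use common last exons, so which of them the reads came from is uncertain. Ugt1a7c differed by -0.64 in AP and -0.24 in sham, not past the threshold. Sult1a1 read 96.9, 117, 120.5, 97.6 and 138 FPKM in WT sham, 86.1, 86.5, 77.5, 106 and 135 in WT AP, 33, 72.9, 106, 77 and 119.8 in KO sham, and 41.5, 79.3, 56.8, 53.9 and 111 in KO AP. The KO and WT libraries overlapped in both treatments, with differences of -0.57 ± 0.28 (adjusted p = 0.097) in AP and -0.58 ± 0.28 (adjusted p = 0.084) in sham. Sult5a1 was lower in KO sham, at -0.81 ± 0.23 (adjusted p = 0.0050), a call kept under all alternatives run, and differed by -0.23 in AP. Sult1d1, a sulfotransferase of catecholamines, was lower in KO sham, at -0.90 ± 0.33 (adjusted p = 0.027), a call lost without KO sham 4 or 5 or WT sham 1 or 2 (adjusted p up to 0.088) or without the libraries of low correlation (adjusted p = 0.18), and differed by -0.36 in AP. Library weights and no filter also ended the sham call of Sult1d1.

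Flavin mono-oxygenases were lower or not called in KO lung. Fmo2 read 442, 525, 474, 475 and 524 FPKM in WT sham, 397, 379.5, 349, 330.1 and 454 in WT AP, 132, 204, 342, 238 and 195 in KO sham, and 194, 274, 177, 220.2 and 349 in KO AP. In sham all KO libraries lay below all WT libraries, and in AP only KO AP 5 reached the WT range. Fmo2 was lower, at -1.2 ± 0.21 (adjusted p = 7.5e-05) in sham and -0.69 ± 0.21 (adjusted p = 0.0085) in AP. Fmo1 read 248, 285, 296, 249.8 and 228 FPKM in WT sham, 176, 242, 225, 225 and 239 in WT AP, 98.5, 124, 168, 157 and 159 in KO sham, and 102, 126, 152, 182 and 255 in KO AP. KO and WT sham did not overlap, while KO AP 5 was the highest of all AP libraries. Fmo1 was lower, at -0.90 ± 0.20 (adjusted p = 0.00071) in sham and at -0.50 ± 0.20 (adjusted p = 0.039) in AP, where the call was lost when any of KO AP 1, 2 or 3 or WT AP 2, 3, 4 or 5 was left out (adjusted p up to 0.13), with the libraries of low correlation left out (adjusted p = 0.053), with no filter on low values and with only the groups compared. Fmo5 differed by -0.67 ± 0.17 (adjusted p = 0.0019) in sham and -0.26 ± 0.17 (adjusted p = 0.19) in AP. The family medians were -0.26 in AP and -0.90 in sham, against 0.00 and -0.01 over all genes. In neither treatment did 16 of the 51 genes pass, with differences between -0.99 and 0.75.

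**Figure D3:**
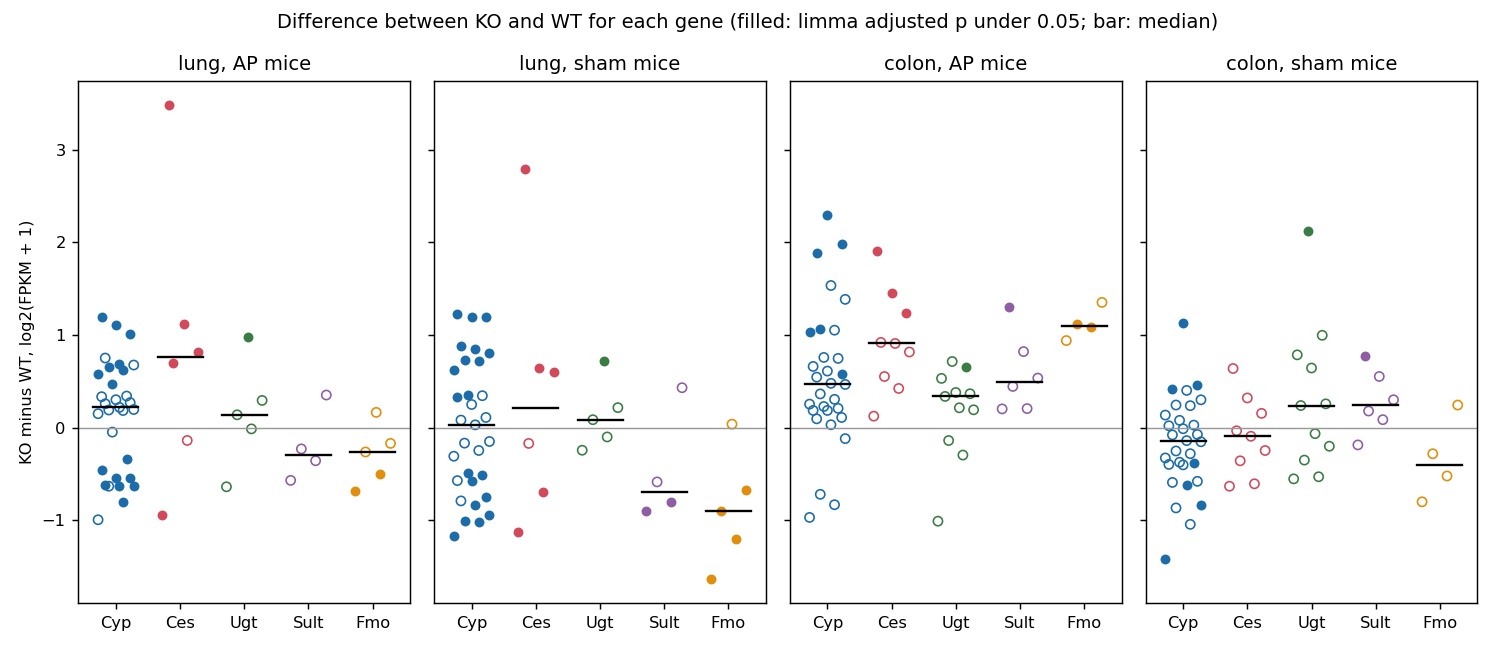
KO minus WT difference of each tested gene on the log2(FPKM + 1) scale, by family, in 4 panels for lung and colon in AP and sham. Filled points passed limma's adjusted p of 0.05, open points did not, and the bar is the family median, so that the flavin mono-oxygenases lie mostly below 0 in lung (median -0.90 in sham) and above 0 in colon in AP (median 1.10).

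The second comparison was between KO and WT colon. In AP the genes that passed were all higher in KO, led by the neighbouring P450 genes Cyp2d9, Cyp2d10, Cyp2d12, Cyp2d22 and Cyp2d34, the carboxylesterases Ces1e, Ces1f and Ces2a, the sulfotransferase Sult1c2 and the flavin mono-oxygenases Fmo1 and Fmo4. After sham none of these except Sult1c2 passed, and Cyp51 had the largest difference among genes that reached the level in both genotypes. Of 60 genes, 13 (21.7%) passed in AP, all higher, and 9 (15.0%) in sham, 5 higher and 4 lower. Of all 15001 genes tested, 18.3% passed in AP (7.37% higher, 10.9% lower) and 31.4% in sham (16.0% higher, 15.4% lower). The median difference over the 60 genes was 0.53 in AP and -0.08 in sham, against -0.01 and 0.01 over all genes, and 53 of 60 differences in AP were above 0. The lists of higher genes shared Cyp4f40 and Sult1c2, 15.4% of the AP list and 40% of the sham list, and the lists share no library. TPM scaling moved the median of all genes to -0.13 in AP and -0.15 in sham and left 10 higher and none lower in AP and 2 higher and 4 lower in sham. Over all genes it gave 541 higher and 1762 lower in AP and 1249 and 2683 in sham, and upper quartile scaling gave 1928 higher and 2774 lower in sham. With colon KO AP 1 and 4, the libraries of low correlation, left out, 16 passed in AP, all higher. That fit kept only KO AP 3 and 5 in the group, and the libraries left out were picked for differing from it. Without colon WT sham 2, 8 passed in sham. The counts over all genes in these fits are not given here.

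Colon cell markers moved too. Summed over 8 colonocyte markers, the libraries read 2974 to 13550 FPKM in WT sham, 2341 to 5085 in WT AP, 3567 to 9681 in KO sham and 5262 to 9898 in KO AP, with 3 of 8 higher in KO in AP and 1 lower in sham. Goblet cell markers summed to 8130 to 17170 FPKM in WT AP and 3042 to 5473 in KO AP, with 6 of 8 lower in AP and 2 of 8 in sham. Smooth muscle markers were higher in KO for 6 of 8 in AP and 5 of 8 in sham, and endothelial markers lower for 7 of 8 and 6 of 8. Fibroblast markers were lower for 5 of 8 and 4 of 8. Macrophage markers were lower for 4 of 7 tested in AP and 5 of 7 in sham, summing to 153 to 450.4 FPKM in WT AP and 55.4 to 125 in KO AP. Over the 19 colon libraries the log2 macrophage sum had a Pearson r of -0.84 with Sult1c2 and -0.74 with Ces1e, against a median of -0.33 over the 60 genes, libraries sharing group and depth. Markers of liver, which expresses Cyp2d genes and esterases strongly, and of pancreas were summed as well. The 8 hepatocyte markers summed to 11.9 to 31.3 FPKM in WT AP and 27.2 to 83.1 in KO AP, and of the 3 that reached the level Tat, a tyrosine aminotransferase, was higher in KO AP by 1.7 ± 0.43 (adjusted p = 0.012), while Ttr and Apoa2 did not pass. Albumin (Alb) read 0.42 ± 0.19 FPKM in KO AP and 0.36 ± 0.22 in WT AP, and Fgb, a fibrinogen chain, was listed at 0 in all 4 KO AP libraries. The log2 hepatocyte sum had a Pearson r of 0.82 with Cyp2d10, 0.78 with Cyp2d12 and 0.78 with Fmo4 over the 19 libraries, against a median of 0.21 over the 60 genes. Of the marker lists correlated in colon, colonocytes had the highest median r over the 60 genes, 0.447. Across those genes r ran from -0.598 to 0.891 for colonocytes, -0.512 to 0.822 for hepatocytes and -0.844 to 0.86 for macrophages. For pancreatic acinar markers it ran from -0.533 to 0.85. The r values named above for single genes lie toward the ends of these ranges. Those of the same genes with the other sums are not given here. The 8 pancreatic acinar markers summed to 85.01 to 147 FPKM in WT AP and 109 to 451 in KO AP. The sum rests on Cela1, an elastase and the only one of the 8 that reached the level, which was higher in KO AP by 1.22 ± 0.35 (adjusted p = 0.023), while 5 of the 8 were at 0 in all KO AP libraries. The 8 small intestine markers summed to 78.7 to 422 FPKM in WT AP and 78.1 to 515 in KO AP. The part of any of these cell types in the differences of the enzyme genes was not tested.

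Of the Cyp2d genes, relatives of the human debrisoquine hydroxylase, Cyp2d34 had the highest level and read 168, 130.2, 169, 201 and 166 FPKM in WT sham, 194, 204, 220.2, 214 and 138 in WT AP, 368, 266, 165, 237 and 131 in KO sham, and 369.9, 539, 349.8 and 346 in KO AP. All 4 KO AP libraries lay above every library of WT AP and WT sham, and KO sham overlapped WT sham. Cyp2d34 was higher in KO by 1.04 ± 0.24 (adjusted p = 0.0082) in AP and differed by 0.40 ± 0.23 (adjusted p = 0.19) in sham. Cyp2d10, whose promoter is shown above, read 21.6, 25.6, 27.6, 22.6 and 22.2 FPKM in WT sham, 10.3, 18.6, 17.1, 20.8 and 15.5 in WT AP, 55.5, 20.02, 13.7, 40.5 and 35.7 in KO sham, and 55, 148, 34.3 and 52 in KO AP. KO AP did not overlap WT AP, with library 3 far above the rest, and KO sham fell on both sides of WT sham. Cyp2d10 was higher by 1.89 ± 0.37 (adjusted p = 0.0031) in AP and differed by 0.30 in sham. Cyp2d9 read 19.5, 47.9, 22.4, 22.6 and 23.4 FPKM in WT sham, 8.1, 15, 23.5, 21.4 and 7.5 in WT AP, 53, 72.5, 23.1, 24.9 and 11.7 in KO sham, and 71.8, 77, 84.5 and 22.4 in KO AP. KO AP 5 lay inside the WT AP range and the other 3 KO AP libraries above it. Cyp2d9 was higher by 1.99 ± 0.49 (adjusted p = 0.010) in AP, with an adjusted p of 0.079 once the libraries of low correlation were left out, and differed by 0.24 in sham.

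Cyp2d12 read 23.6, 10.1, 16.2, 27.3 and 22.4 FPKM in WT sham, 4.12, 15.9, 12.4, 17.3 and 2.63 in WT AP, 38.2, 9.17, 4.17, 44.2 and 8.23 in KO sham, and 37.7, 102, 18.9 and 57.2 in KO AP. KO AP lay above WT AP without overlap, while KO sham straddled WT sham. Cyp2d12 was higher by 2.29 ± 0.64 (adjusted p = 0.019) in AP, a call lost without KO AP 3, KO AP 5 or WT AP 5 (adjusted p up to 0.071), and differed by -0.37 in sham. Cyp2d22 read 10.02, 10.6, 12, 12.3 and 9.34 FPKM in WT sham, 5.34, 7.36, 6.92, 8.67 and 4.57 in WT AP, 14.2, 5.48, 8.48, 14.4 and 8.78 in KO sham, and 11.2, 20.4, 9.33 and 20.3 in KO AP. Again KO AP and WT AP did not overlap and the difference was 1.06 ± 0.26 (adjusted p = 0.0098) in AP and -0.14 in sham. Cyp2d26 was the member of the group that did not pass, at 0.75 ± 0.36 (adjusted p = 0.16) in AP. The 6 genes lie together on chromosome 15, and their 15 pairs had a median Pearson r of 0.48 over the 19 colon libraries with group means removed, against 0.14 over 1770 pairs of tested enzyme genes, libraries sharing their depth and cell make-up. Cyp2d10 shares 11.7% and Cyp2d9 7.91% of their 100-base windows with another gene, so part of their reads could belong to a relative.

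Other P450s of colon showed fewer calls. Cyp2c55 read 32.1, 711, 41.4, 75.8 and 102 FPKM in WT sham, 77.2, 10.6, 50.1, 46.8 and 22.4 in WT AP, 119, 116, 156, 16.3 and 4.6 in KO sham, and 5.21, 82.5, 152 and 101 in KO AP. The groups overlapped throughout, and it differed by 0.61 ± 1.09 (adjusted p = 0.74) in AP and -1.04 ± 1.03 (adjusted p = 0.46) in sham, the latter moving to -0.32 (adjusted p = 0.83) without WT sham 2. The 4 Cyp2c genes with the CAAAGTCCA windows, Cyp2c40, Cyp2c65, Cyp2c68 and Cyp2c69, differed by 0.76, -0.72, 1.53 and 1.05 in AP, none past the threshold. Cyp51 read 25.5, 27.3, 22, 17.3 and 14.7 FPKM in WT sham, 25.3, 24.5, 25.7, 44.8 and 37.9 in WT AP, 36.3, 75.9, 49.8, 36.4 and 44 in KO sham, and 64.4, 28.3, 56.4 and 32.4 in KO AP. All KO sham libraries lay above all WT sham libraries, and KO AP overlapped WT AP. Cyp51 was higher in KO by 1.13 ± 0.26 (adjusted p = 0.0038) in sham and differed by 0.47 ± 0.27 (adjusted p = 0.25) in AP. Cyp4f40 was higher by 0.58 ± 0.18 (adjusted p = 0.034) in AP and 0.46 ± 0.17 (adjusted p = 0.048) in sham, calls lost without any of 6 and 13 single libraries of the 19 (adjusted p up to 0.094 and 0.12). The AP call was also lost without the libraries of low correlation (adjusted p = 0.35), under TPM scaling, with library weights, no filter, only the groups compared or the replicate block, and the sham call under TPM and upper quartile scaling, with no filter and with the block. Cyp20a1, a P450 with no settled substrate, was higher in sham by 0.41 ± 0.13 (adjusted p = 0.026), lost without KO sham 3 or 4 or WT sham 3 or 4 (adjusted p up to 0.075) and under TPM scaling (adjusted p = 0.34). Upper quartile scaling and only the groups compared also ended that call. Lower in KO sham was Cyp4v3 at -0.61 ± 0.23 (adjusted p = 0.046), a call lost without any of 11 single libraries (adjusted p up to 0.12). It was also lost with no filter, only the groups compared or the replicate block. The other 3 lower genes, Cyp2e1, Cyp2w1 and Cyp2j9, an arachidonic acid epoxygenase, reached the level in fewer than 4 KO libraries, so their differences of -1.42, -0.84 and -0.38 are a description, and each call was lost without any of between 9 and 13 single libraries. Cyp2e1 read 2.17, 15.7, 5.13, 6.88 and 3.52 FPKM in WT sham, 0.249, 2.51, 5.99, 0.578 and 0.0717 in WT AP, 2.37, 0.239, 2.61, 4.08 and 0.0964 in KO sham, and 0.132, 0, 0.422 and 0 in KO AP, so that WT sham 2 was the highest library and the KO AP libraries were at or near 0.

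Of the 9 carboxylesterases tested in colon, 3 were higher in KO AP and 6 did not pass. Ces1e read 2.89, 4.45, 2.85, 3.35 and 1.86 FPKM in WT sham, 1.87, 1.82, 1.86, 1.33 and 1.33 in WT AP, 6.33, 5.4, 4.36, 4.54 and 1.22 in KO sham, and 3.86, 7.01, 8.44 and 6.39 in KO AP. The KO AP libraries all lay above the WT AP libraries, and KO sham 5 was the lowest of all. Ces1e was higher by 1.46 ± 0.28 (adjusted p = 0.0025) in AP and differed by 0.32 ± 0.26 (adjusted p = 0.37) in sham. Ces1f read 5.6, 21.7, 4.14, 6.76 and 7.96 FPKM in WT sham, 4.42, 2.21, 3.85, 1.44 and 2.46 in WT AP, 24.9, 14.1, 24.7, 21.2 and 1.19 in KO sham, and 15.2, 5.86, 21.2 and 14.1 in KO AP. KO AP and WT AP did not overlap, with a difference of 1.9 ± 0.60 (adjusted p = 0.034), lost when any of KO AP 1, 4 or 5 or WT AP 2, 3, 4 or 5 was left out (adjusted p up to 0.089), or the libraries of low correlation (adjusted p = 0.18), and with no filter. Ces2a, a drug and lipid esterase of the gut, read 29.9, 114, 32.3, 32.8 and 30.1 FPKM in WT sham, 21.9, 23.9, 21.5, 17.6 and 16.1 in WT AP, 33.4, 34, 47.3, 39.5 and 21.4 in KO sham, and 21.6, 82.9, 44.7 and 69.2 in KO AP. WT sham 2 was the highest of all libraries, KO AP 1 lay inside the WT AP range, and the other 3 KO AP libraries lay above it. Ces2a was higher in AP by 1.24 ± 0.38 (adjusted p = 0.031), a call lost without KO AP 3, 4 or 5 or WT AP 3, 4 or 5 (adjusted p up to 0.11) and with no filter. Ces2c, Ces2e, Ces1d and Ces1g differed by 0.92, 0.42, 0.91 and 0.82 in AP and did not pass. The 4 Ces1 genes tested in colon, neighbours on chromosome 8, had a median Pearson r of 0.75 over their 6 pairs with group means removed.

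**Figure D4:**
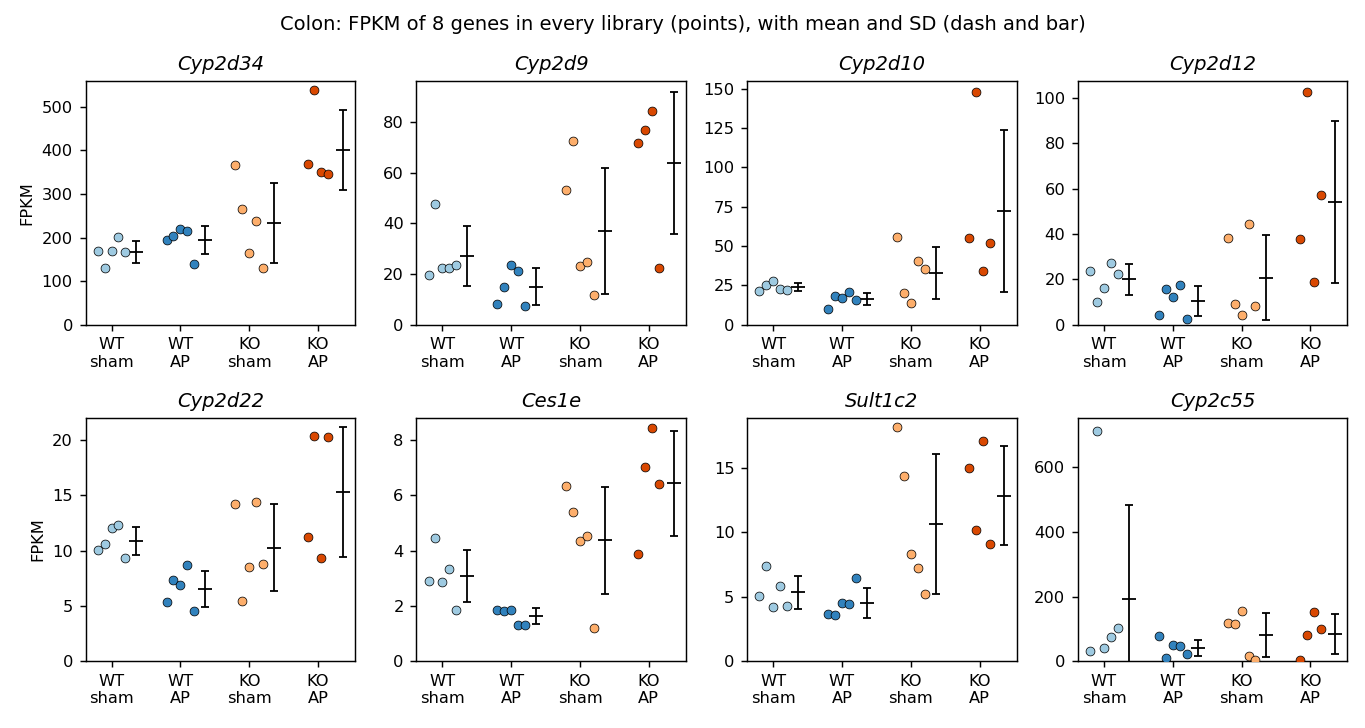
FPKM in each colon library (points) of 8 genes, 1 panel per gene, for WT sham, WT AP, KO sham (5 libraries each) and KO AP (4 libraries), with the mean and SD of each group. The 4 KO AP libraries lie above all WT AP libraries for Cyp2d34, Cyp2d10, Cyp2d12, Cyp2d22, Ces1e and Sult1c2, while for Cyp2c55 the groups overlap and 1 WT sham library reads 711 FPKM.

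Sult1c2, a sulfotransferase of phenols, read 5.06, 7.36, 4.18, 5.81 and 4.3 FPKM in WT sham, 3.67, 3.6, 4.49, 4.42 and 6.48 in WT AP, 18.1, 14.3, 8.29, 7.25 and 5.21 in KO sham, and 15, 10.2, 17.1 and 9.06 in KO AP. All KO AP libraries lay above all WT AP libraries, and 3 of 5 KO sham libraries lay above all WT sham libraries. Sult1c2 was higher in KO by 1.3 ± 0.28 (adjusted p = 0.0048) in AP and 0.78 ± 0.26 (adjusted p = 0.031) in sham, the sham call being lost without KO sham 1 or 2 or WT sham 1, 3 or 5 (adjusted p up to 0.087), under TPM scaling, with no filter and with only the groups compared. Sult1a1, at the highest level of its family, read 154, 181, 169.8, 171 and 180.0 FPKM in WT sham, 205, 172, 176, 143 and 158 in WT AP, 239.9, 351, 114, 115 and 177 in KO sham, and 154, 159, 341 and 173 in KO AP. It overlapped between genotypes in both treatments and differed by 0.20 ± 0.28 (adjusted p = 0.66) in AP and 0.09 ± 0.27 (adjusted p = 0.83) in sham. Ugt1a8 read 0.0992, 0.331, 0.551, 0.198 and 0.117 FPKM in WT sham, 2.15, 0.0618, 0.023, 2.98 and 1.13 in WT AP, 8.97, 4.1, 4.54, 4.02 and 2.33 in KO sham, and 4.9, 0.866, 1.98 and 0.967 in KO AP. Every KO sham library lay above every WT sham library, and in AP the groups overlapped. Ugt1a8 reached the level in no WT sham library and in 3 WT AP libraries, so it entered through the KO libraries and its difference of 2.12 in sham is a description. It differed by 0.53 ± 0.41 (adjusted p = 0.38) in AP, and 58.2% of its windows are shared within its gene cluster. Ugt2b35, of the glucuronosyltransferases that act on steroids, was higher in AP by 0.65 ± 0.17 (adjusted p = 0.015), a call lost under TPM scaling and without the libraries of low correlation (adjusted p up to 0.13). Of the 11 glucuronosyltransferases tested, 1 passed in each treatment.

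Fmo1, lower in KO lung, was higher in KO AP colon. It read 3.52, 2.04, 2.75, 2.59 and 3.9 FPKM in WT sham, 1.2, 2.69, 2.67, 4.01 and 1.84 in WT AP, 2.44, 1.97, 2.38, 7.32 and 6.34 in KO sham, and 6.98, 6.87, 4.04 and 7.05 in KO AP. The lowest KO AP library stood just above the highest WT AP library, and KO sham overlapped WT sham. Fmo1 was higher by 1.08 ± 0.30 (adjusted p = 0.018) in AP, with an adjusted p of 0.056 under TPM scaling, and differed by 0.24 in sham. Fmo4 was higher by 1.12 ± 0.31 (adjusted p = 0.019) in AP, a call lost without KO AP 3 or KO AP 5 (adjusted p up to 0.069), and differed by -0.28 in sham. Fmo5 differed by 1.35 ± 0.47 (adjusted p = 0.055) in AP. Fmo1 and Cyp2d22 were the 2 genes lower in KO lung and higher in KO colon in AP, and the difference between tissues was not tested. In the fit reported, Ces1e was the only gene higher in KO in AP in both tissues. In sham Cyp51 and Cyp20a1 were higher and Cyp2j9 and Cyp4v3 lower in both tissues in the same fit. The lung call of Cyp20a1 was lost without any of 12 single libraries (adjusted p up to 0.11), under TPM scaling (adjusted p = 0.75), upper quartile scaling, no filter and only the groups compared. The lung call of Cyp2j9 was lost without KO sham 1 or 2 (adjusted p up to 0.074), with no filter and with only the groups compared. In neither treatment did 40 of the 60 genes pass in colon, with differences between -1.04 and 1.53.

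The third comparison was between AP and sham within a genotype. No enzyme gene passed in either tissue or genotype with limma. In lung 0.0814% of all genes passed in WT and 0.0125% in KO, and 1 and 16 of the 51 genes had an unadjusted p under 0.05, as did 6.67% and 14.0% of all genes. The smallest p in WT lung was that of Cyp2a5, at 1.14 ± 0.48 (adjusted p = 0.67) (AP minus sham), with Cyp8b1 at -0.43 ± 0.22 (adjusted p = 0.79) and Cyp2d22 at -0.41 ± 0.22 (adjusted p = 0.81). In KO lung the smallest were those of 3 carboxylesterases, Ces1f at 0.93 ± 0.24 (adjusted p = 0.14), Ces1b at 0.64 ± 0.17 (adjusted p = 0.15) and Ces1d at 0.66 ± 0.19 (adjusted p = 0.18). The median difference was -0.02 in WT and 0.15 in KO lung, against -0.01 and -0.02 over all genes.

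In colon 0% of all genes passed in WT and 0.0400% in KO, and 11 and 12 of the 60 genes had an unadjusted p under 0.05, as did 6.25% and 18.7% of all genes. In WT colon the smallest p were those of Cyp2e1 at -1.56 ± 0.53 (adjusted p = 0.79), Ces1g at -1.06 ± 0.38 (adjusted p = 0.79) and Cyp2d22 at -0.67 ± 0.24 (adjusted p = 0.79). In KO colon they were those of Cyp2d34 at 0.84 ± 0.24 (adjusted p = 0.11), the glucuronosyltransferase Ugt1a9 at -1.76 ± 0.57 (adjusted p = 0.14) and Cyp2d10 at 1.04 ± 0.37 (adjusted p = 0.16). The median difference over the 60 genes was -0.35 in WT colon, where 8 of 60 lay above 0, and 0.29 in KO colon, where 44 of 60 did, against 0.02 and -0.03 over all genes. With colon KO AP 1 and 4 left out, 8 genes passed in KO colon, 7 higher and 1 lower in AP, as did 1512 of all 15001 genes. Only KO AP 3 and 5 stayed in that group, and the libraries left out were picked for differing from it.

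The difference of the AP response between genotypes (KO minus WT) was tested as an interaction, and 0% of all genes passed in either tissue. No enzyme gene passed in limma, with 3 of 51 in lung and 17 of 60 in colon at an unadjusted p under 0.05, against 8.66% and 18.8% of all genes. In lung Ces1d, at 0.87 ± 0.27 (adjusted p = 0.45), and Cyp2f2, at 1.19 ± 0.54 (adjusted p = 0.56), were among the 3 smallest p. In colon they were those of Cyp2d22 at 1.2 ± 0.35 (adjusted p = 0.11), Fmo4 at 1.4 ± 0.43 (adjusted p = 0.11) and Cyp2d10 at 1.58 ± 0.51 (adjusted p = 0.13). The genes called in KO AP colon and not in KO sham colon are therefore not shown to respond differently to pancreatitis by this test. With colon KO AP 1 and 4 left out, 11 genes passed, 10 with a higher response in KO and 1 with a lower one, as did 945 of all 15001 genes. That fit kept only KO AP 3 and 5 in the group, and the libraries left out were picked for differing from it. A group cut in this way has a smaller spread by choice, so these calls do not show a different response. Without colon KO sham 1, 7 passed, and the count over all genes in that fit is not given here.

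Other genes of the same chemistry were followed in lists, whose counts stand beside 27.6% higher and 28.1% lower of all genes in lung in AP, 28.8% and 30.0% in lung in sham, 7.37% and 10.9% in colon in AP and 16.0% and 15.4% in colon in sham. Of 11 genes for electron transfer to P450s and haem supply, 8 were higher and 2 lower in KO lung in AP and 6 and 1 in sham, with medians of 0.84 and 0.77 against 0.00 and -0.01 over all genes. Alas1, the rate-limiting enzyme of haem synthesis, was higher by 1.97 ± 0.23 (adjusted p = 2.7e-06) in AP (523.5 ± 154 against 130.2 ± 31.4 FPKM). The mitochondrial electron carriers Fdx1 and Fdxr were higher by 0.91 ± 0.15 (adjusted p = 8.1e-05) and 0.84 ± 0.14 (adjusted p = 7.2e-05). Por, the reductase of microsomal P450s, differed by 0.04 ± 0.20 (adjusted p = 0.88). In colon Cyb5b, an outer membrane cytochrome, was higher by 0.60 ± 0.15 (adjusted p = 0.011), and Hmox1, which breaks down haem, lower, at -1.06 ± 0.28 (adjusted p = 0.016), each the sole gene of its direction among the 11 in AP, against 2 higher and none lower in sham.

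Receptors and factors that control such enzymes gave 2 higher and 3 lower of 11 in KO lung in AP and 5 lower in sham. Ahr, the aryl hydrocarbon receptor, was lower, at -1.01 ± 0.14 (adjusted p = 1.4e-05) in AP (8.70 ± 1.25 against 18.8 ± 4.31 FPKM), and its partner Arnt, at -0.86 ± 0.27 (adjusted p = 0.011), while Nfe2l2, the antioxidant response factor, was higher by 0.51 ± 0.09 (adjusted p = 0.00015). Cyp1a1, the target of Ahr named above, differed by 0.19 in the same comparison. In colon 1 of 14 was lower in AP and 4 of 14 in sham, with none higher. Hnf4a was lower, at -0.51 ± 0.14 (adjusted p = 0.016) in AP (95.7 to 157 FPKM in 4 KO libraries against 160.0 to 218 in 5 WT libraries) and -0.68 ± 0.13 (adjusted p = 0.0011) in sham. Sult1b1, whose promoter holds the CAAAGTCCA window shown above, differed by 0.54 ± 0.32 (adjusted p = 0.25) in AP.

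Other oxidising, reducing and hydrolysing enzymes gave 16 higher and 6 lower of 28 in KO lung in AP and 15 and 6 in sham, with medians of 0.64 and 0.54. The smallest p in AP were those of the aldehyde dehydrogenase Aldh3b1, higher by 1.3 ± 0.14 (adjusted p = 1.0e-06), and the reductases Akr1c13 and Akr1a1, higher by 1.27 ± 0.23 (adjusted p = 0.00014) and 0.62 ± 0.12 (adjusted p = 0.00021). In colon 7 were higher and 1 lower of 26 in AP and 6 and 1 in sham. Ephx2, the epoxide hydrolase that acts on P450 products of arachidonic acid, was higher in AP by 1.48 ± 0.24 (adjusted p = 0.00093) (15.7 ± 6.09 against 4.74 ± 0.96 FPKM), with Akr1c13 higher by 1.11 ± 0.22 (adjusted p = 0.0028) and the monoamine oxidase Maob by 1.29 ± 0.31 (adjusted p = 0.0091). Among conjugation support genes, 2 were higher and 1 lower of 15 in KO lung in AP, the lower one being Papss2, which makes the sulfate donor, at -1.81 ± 0.33 (adjusted p = 0.00015). None of 14 passed in KO AP colon, where Ugdh, which makes the glucuronic acid donor, had the smallest p at 1.05 ± 0.37 (adjusted p = 0.056). Transporters of drugs and conjugates gave 3 higher and 6 lower of 14 in KO lung in AP and 4 and 7 in sham. Abcb1a, a P-glycoprotein of vessel walls and epithelia, was lower, at -2.1 ± 0.30 (adjusted p = 1.9e-05) in AP, beside the lower endothelial markers given above, and the carrier Slc22a18 was higher by 1.63 ± 0.24 (adjusted p = 1.8e-05). In colon Abcc1 was higher by 0.54 ± 0.18 (adjusted p = 0.041) and Abcb1b lower, at -0.62 ± 0.19 (adjusted p = 0.029), the only 2 of 12 that passed in AP, while 3 were lower in sham.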

How the data were processed

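RNA of lung and colon was sequenced on an Illumina NovaSeq instrument after mRNA enrichment, per the labels' protocols. The deposited values are FPKM per gene, 1 table per tissue. The submitters' processing notes name HISAT2 2.1.0, StringTie 1.3.3b and the build mm39, without saying which step used which. Nothing used here states strandedness or annotation. Symbols came from a table of gene names and gene types from the GENCODE mouse annotation supplied with the reference.

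Lung and colon were each tested alone, over genes that reached 1 FPKM in 4 or more of their libraries, on log2(FPKM + 1), the pseudocount being 1, with limma 3.58.1 (trended variance, 4 group means, all libraries of the tissue in one fit) in R 4.3.3. A fold on that scale understates the change of low genes. P-values were adjusted by Benjamini-Hochberg over all genes of the tissue, with a threshold of 0.05. The step was tested on simulated data for KO against WT in AP, with 100 genes changed 1.5-fold and 100 changed 2-fold. It recovered 42% and 76% of these in lung and 34% and 66% in colon. Of the unchanged genes it called 4 of 15778 in lung and 8 of 14801 in colon. Far fewer genes changed there than were called in the data, and none of them were at the lowest levels. The simulated spread of a gene was the same in all groups and independent of other genes. In the data KO lung libraries correlated less with their group than WT ones, and some libraries stood apart for many genes. The share of false calls in the simulation therefore does not carry over to the data. Other work used Python 3.11.15, numpy 2.4.6, pandas 2.3.3 and matplotlib 3.10.9. Reads per library were recovered from the steps between low FPKM values, since FPKM itself gives no counts, and no interval was computed from them.

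The text names a set of well-known genes, the 5 highest members per tissue, the 8 largest called differences each way (mean of 2 FPKM or more in either group), the 3 lowest p where none passed, and 3 genes of each pathway list. The genes named outside this rule (Cyp2c40, Cyp2c65, Cyp2c68, Cyp2c69, Cyp2d26, Cyp4a12b, Cyp4f13, Sult5a1, Por, Tat, Ttr, Apoa2, Cela1, the members at the edge of the level rule and, in colon, Cyp2j9, Cyp2w1 and Ugt2b35) were chosen after their values were seen. One gene of the rule is not reported here. The members, the lists and the comparisons were chosen with earlier results of these data known. Alternatives were a pseudocount of 0.1, no filter, TPM scaling, upper quartile scaling, only the groups compared, library weights, a replicate block, libraries of low correlation left out, and each library left out in turn.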

Additional observations from a re-analysis of the deposited data

Results flagged for a closer look

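Libraries that stood apart from the rest of their group by Dixon's gap ratio are given for a set of genes that holds those shown library by library and 6 others (Cyp2a5, Cyp2e1 and Cyp26b1 in lung, Cyp2d26, Ces2e and Sult1b1 in colon). Of 148 such groups, 20 had a library apart, and of all 444 groups of tested enzyme genes 65 did (14.6%). Chance gives about 1 in 20 for independent groups of normally distributed values. The ratio was taken on FPKM without logs, and 1 library can be apart for many genes, so these shares are a description. In colon 6 of the 20 were WT sham 2, at 711.1 FPKM for Cyp2c55, 170.7 for Sult1b1, 116.7 for Ces2e, 113.9 for Ces2a, 47.87 for Cyp2d9 and 21.7 for Ces1f. That library was apart for 22 of the 60 genes tested in colon and had the highest colonocyte and small intestine marker sums of its group.

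Other colon libraries apart were KO AP 3 for Cyp2d34 (538.9 FPKM), KO AP 4 for Sult1a1 (340.8, high) and Fmo1 (4.042, low), and WT AP 4 for Sult1b1 (126.9). In lung KO AP 3 was high for Cyp2a5 (173.9 FPKM) and Cyp2e1 (84.18), beside its fat cell marker sum of 3568 FPKM. The part of other tissue in these values was not tested.

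The other lung values were 27.78 FPKM for Cyp26b1 in WT AP 4 and 3.776 in WT sham 5, 141 for Cyp2b10 in KO sham 4, and 13.91 for Cyp2d22 in KO sham 1. They also include 48.91 for Cyp2d22 in WT AP 5, 68.08 for Cyp2s1 in WT sham 5, 176.3 for Fmo1 in WT AP 1 and 1.21 for Ces1g in WT AP 2.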

How the results depend on the processing

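No difference of a named gene that passed changed sign under any alternative run. In lung the number of enzyme genes called between KO and WT kept within 1.5 times of 24 in AP and 32 in sham under every alternative. With library weights, 21 passed between KO and WT colon in AP and 14 in sham, 3 between AP and sham in WT lung, 2 between AP and sham in KO colon, and the difference of responses gave 1 in lung and 12 in colon. In sham colon 3 passed with no filter on low values and 5 with only the groups compared. With the libraries of low correlation left out, 8 passed between AP and sham in KO colon and 11 for the difference of responses in colon. Only KO AP 3 and 5 then stayed in the KO AP group of colon. Leaving out each library in turn gave 8 to 17 between KO and WT colon in AP (8 without KO AP 5), 2 to 11 in sham (2 without WT sham 3), 0 to 2 between AP and sham in KO colon, 0 to 1 in KO lung (1 without KO AP 3 or KO sham 1), and 0 to 7 for the difference of responses in colon. The counts over all genes in these settings are given only where stated above. Without them these counts do not show a change particular to the enzyme genes. The cause was not tested. In all, 78 differences of enzyme genes between KO and WT passed, some of them of genes not named here. Of these, 31 were lost without at least 1 library, 23 with no filter, 16 under TPM scaling and 13 with only the groups compared. Without the libraries of low correlation 10 were lost, with the replicate block 6 and under upper quartile scaling 5. A pseudocount of 0.1 and library weights each ended 4. With the replicate number as a block, 24 and 32 genes passed between KO and WT lung in AP and sham, 12 and 6 in colon. The labels do not say what the number marks, and deviations of same-numbered libraries correlated between -0.52 and 0.46, with no pair of groups above 0.1 throughout. With 4 or 5 libraries a group, small differences of the more variable genes, such as Cyp2c55, could not be detected.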
